A study of Mus musculus with 20 samples.

Results

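MicroRNAs (miRNAs) were compared between 7 mouse hearts with both myocardial infarction and CIH (MI+CIH) and 5 sham hearts. The labels give CIH as letters only; they are taken to mean chronic intermittent hypoxia, repeated falls in inhaled oxygen that model sleep apnoea. These 12 small RNA libraries are part of a set of 20 that also holds 4 hearts with infarction alone (MI) and 4 with CIH alone. All were whole hearts of C57BL/6J mice, frozen, extracted with Trizol and sequenced. The labels state no age, sex, infarct method, hypoxia protocol or time of collection for any of the groups. Of the 1545 entries in the table, the 360 with at least 5 RPM (reads of a miRNA per 1000000 reads) in at least 4 of the 20 libraries were compared, and they held at least 99.9% of the reads of each library. Nothing in the labels says how the hearts of a group were bred or processed, so the p-values measure the spread between these samples.

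A miRNA is cut from a hairpin precursor, of which 1 or both arms (named 5p and 3p) are kept. It then guides a silencing complex to messenger RNAs that pair with its seed, bases 2 to 8. Heart muscle carries a characteristic set: miR-1 and miR-133 in all striated muscle, and miR-208a and miR-499 from introns of myosin heavy chain genes. After infarction muscle is lost and replaced by scar, with fibroblasts and leukocytes entering the tissue. In whole hearts, fewer cells of a type and less RNA per cell cannot be told apart.

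The libraries held 5700599 to 10953302 reads in the sham group and 1991323 to 18014081 in the MI+CIH group, so that 1 read was worth 0.0555 to 0.502 RPM in these 12. By clustering on log2(RPM + 1), the 20 libraries fall into 3 sets. Set A holds every sham heart, every CIH heart, MI 2 and MI+CIH 1. Set B is made up of MI+CIH 2 to 5 with MI 1 and MI 3. Set C is made up of MI+CIH 6, MI+CIH 7 and MI 4. Pearson correlations across miRNAs were 0.908 to 0.994 within a set and 0.710 to 0.932 between sets. No sham or CIH heart is in set B or C, so the set and the condition cannot be told apart for 6 of the 7 MI+CIH hearts; MI+CIH 1 is the 1 heart of its group in the set of the sham hearts. Sham 1 stands apart from the other sham hearts for several miRNAs, and for those the change without it is also given. For 12 pairs of entries the same reads were listed under both names, as for miR-1a-3p and miR-1b-5p, which agree within 0.223% in every library; 7.79% to 31.6% of the reads per library are in such second entries, and the strand or gene of origin of these reads is uncertain.

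The mature sequences that carry the comparison are shown first, because several of the miRNAs that differed share a seed. They are from RefSeq (GRCm38.p6, the same assembly as mm10), 5′ to 3′, with the seed in capitals. These are raised let-7 members and miR-125a-5p:
let-7b-5p: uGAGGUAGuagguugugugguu
let-7c-5p: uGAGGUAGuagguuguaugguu
let-7e-5p: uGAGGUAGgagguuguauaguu
let-7f-5p: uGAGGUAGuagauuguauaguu
let-7i-5p: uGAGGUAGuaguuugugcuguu
miR-125a-5p: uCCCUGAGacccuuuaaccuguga

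The let-7 hairpins lie apart in the genome. Mirlet7b is at chr15:85707319-85707403 (plus strand) in an exon of the long non-coding gene Lncppara, and Mirlet7c-2 is beside it at chr15:85706603-85706697. Mirlet7e, at chr17:17830352-17830444, lies in an intron of Spaca6, and Mir125a, at chr17:17830812-17830879, overlaps an annotated exon of that gene. One of the hairpins that give let-7f-5p is in an intron of Huwe1 on the X chromosome (chrX:151912346-151912428), and Mirlet7i is at chr10:122985640-122985724 (minus strand).

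Other miRNAs that were higher in MI+CIH are the 3p arms of miR-34b and miR-34c, which share a seed, members of the miR-146 and miR-200 seed families, or stand alone:
miR-34b-3p: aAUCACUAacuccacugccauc
miR-34c-3p: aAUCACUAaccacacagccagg
miR-146a-5p: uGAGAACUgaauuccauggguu
miR-146b-5p: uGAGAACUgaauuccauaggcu
miR-200b-3p: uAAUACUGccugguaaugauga
miR-200c-3p: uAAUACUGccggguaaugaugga
miR-206-3p: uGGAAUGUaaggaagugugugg
miR-214-3p: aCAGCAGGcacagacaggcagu
miR-455-3p: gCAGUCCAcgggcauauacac

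Mir34b (chr9:51103562-51103645) and Mir34c (chr9:51103034-51103110) are neighbours on the minus strand, within an intron of Btg4 on the other strand. Mir214 (chr1:162223368-162223477) is in an exon of Dnm3os, which runs antisense through an intron of Dnm3. The miR-455-3p sequence lies at chr4:63256904-63256924 in an intron of the collagen gene Col27a1. Mir206 is at chr1:20679010-20679082 in the non-coding gene Gm28653. Mir146 is at chr11:43374397-43374461, outside annotated genes, and Mir146b is at chr19:46342762-46342870 in an intron of Mfsd13a. Mir200b is at chr4:156055681-156055750 and Mir200c at chr6:124718322-124718390.

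These are miRNAs that were lower in MI+CIH, with the myosin-intron pair last:
miR-101a-3p: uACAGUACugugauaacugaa
miR-101b-3p: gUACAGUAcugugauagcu
miR-22-3p: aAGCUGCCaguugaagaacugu
miR-499-5p: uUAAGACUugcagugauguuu
miR-208a-3p: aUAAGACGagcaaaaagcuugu

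Mir499 (chr2:155622880-155622958) is in an intron of Myh7b and Mir208a (chr14:54949060-54949142) in an intron of Myh6, the main myosin heavy chain gene of the adult mouse ventricle. Mir22 (chr11:75463716-75463810) is in an exon of its host transcript Mir22hg. Mir101a (chr4:101346945-101347027) is in a non-coding gene and Mir101b (chr19:29135279-29135375) in an intron of Rcl1.

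In MI+CIH hearts, let-7 and miR-125 members, miR-34b/c, miR-146a/b, miR-214, miR-455, miR-200b/c and miR-206 took a larger share of the reads than in sham hearts, while miR-101a/b, miR-22, miR-499, miR-208a, miR-30e and, by less, miR-1a took a smaller share. By limma on log2(RPM + 1), with Benjamini-Hochberg adjustment over the 360 and a threshold of 0.05, 204 miRNAs differed (56.7%), of which 188 were higher (52.2%) and 16 lower (4.44%). The median log2 change of all 360 was 1.39, so a log2 change near 1.39 is what a typical miRNA showed. The entries with the largest shares, miR-1a-3p, its second entry and miR-143-3p, together took 63.9% to 77.8% of the reads in sham hearts (median 74.8%) and 34.6% to 61.1% in MI+CIH hearts (median 46.9%), without overlap. In the plot of change by abundance, these 3 entries lie under 0 at the far right and most other miRNAs lie over it.

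**Figure D1:**
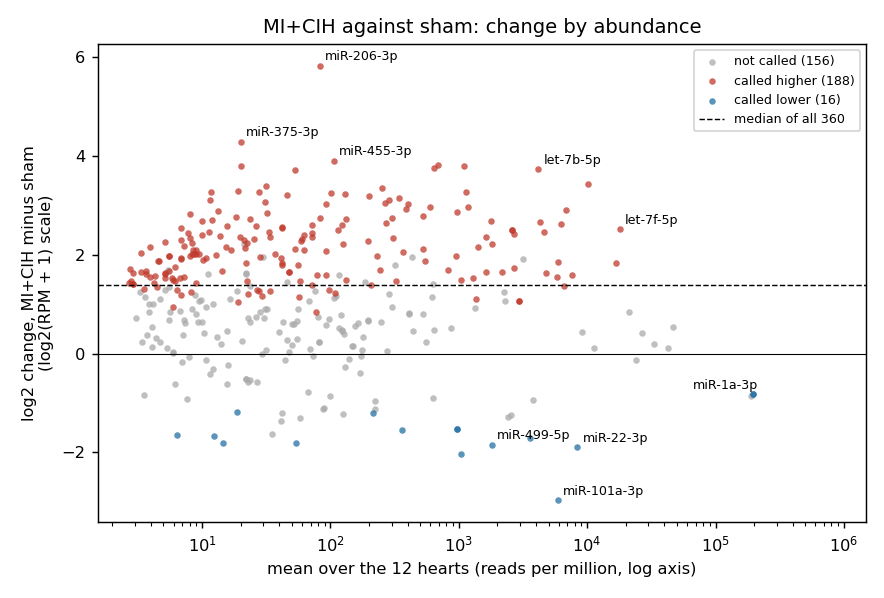
Log2 change between MI+CIH (n = 7) and sham (n = 5) hearts on the log2(RPM + 1) scale against the mean over the 12 hearts in RPM (log axis), 1 point per miRNA (360), coloured by call. The 188 called higher lie above 0, with none among the 5 most abundant miRNAs of either group. The 16 called lower lie under 0, and the dashed line marks the median change, 1.39.

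Because RPM values are shares of a library, the same test was run after TMM and median-of-ratios scaling, which set the typical miRNA near 0. The median change was then -0.05 (TMM) and 0.12 (median of ratios). TMM scaling gave 51 higher (14.2%) and 64 lower (17.8%), and median-of-ratios scaling 61 higher (16.9%) and 51 lower (14.2%). Both scalings moved the median change down, so a lower call by RPM was likely to stay lower. Agreement across the scalings is therefore not independent support. Called in the same direction under all 3 scalings were 51 higher (14.2%) and 16 lower (4.44%), all the TMM higher calls and all the RPM lower calls. Of these, 47 and 10 were also called in that direction by edgeR on the recovered reads, which called 52 higher (14.4%) and 33 lower (9.17%). DESeq2 called 105 higher (29.2%) and 41 lower (11.4%).

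With the library set as a term (called sets fitted from here on), limma called 0 miRNAs (0.0% in each direction), with 21 at an unadjusted p under 0.05 and a smallest adjusted p of 0.407. Within set A alone, where MI+CIH 1 is the only heart of its group and is assumed to vary like the others, 0 were called higher (0.0%) and 2 lower (0.556%), a predicted entry and miR-690, both named after their values were seen. miR-690 was at 2.11 RPM in MI+CIH 1 and 27 to 178 RPM in sham hearts, but at 200.4 to 951 RPM in the set B hearts. The sets were found by clustering these same values, so fitting them takes out much of the difference between the groups by construction. Sets B and C hold no sham heart, so the fitted change is not a direct comparison within those sets. The 0 calls with sets fitted therefore cannot decide whether the conditions differ. The plot of the changes without and with sets fitted shows how much smaller many of them became.

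**Figure D2:**
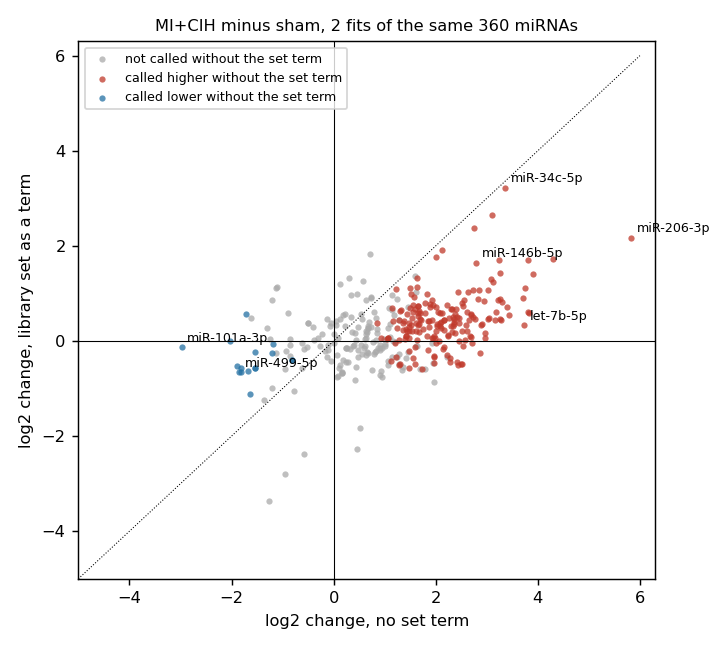
Log2 change between MI+CIH and sham for the same 360 miRNAs without (x axis) and with (y axis) the library set as a term, 1 point per miRNA. Most points lie well under the diagonal on the right: let-7b-5p goes from 3.73 to 0.33 and miR-101a-3p from -2.97 to -0.13, while miR-34c-5p stays at 3.22.

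The values of each heart can also be read without a fit. MI+CIH and sham hearts did not overlap for 49 miRNAs that were higher in MI+CIH (13.6%) and 6 that were lower (1.67%). In MI+CIH 1, 114 miRNAs lay above all 5 sham hearts (31.7%) and 51 below (14.2%). Of the 188 called higher, 78 were above all sham hearts in MI+CIH 1, 160 in every set B heart and 129 in both set C hearts. Their median difference from the sham mean was 0.55 in MI+CIH 1, 2.84 in set B and 1.30 in set C (log2). The 16 called lower had median differences of -0.39, -1.93 and -1.23. All 16 lay below every sham heart in the 4 set B hearts, 10 in both set C hearts and 9 in MI+CIH 1. The called miRNAs were chosen with these same hearts, so these counts describe how the difference is spread over the hearts and test nothing.

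**Figure D3:**
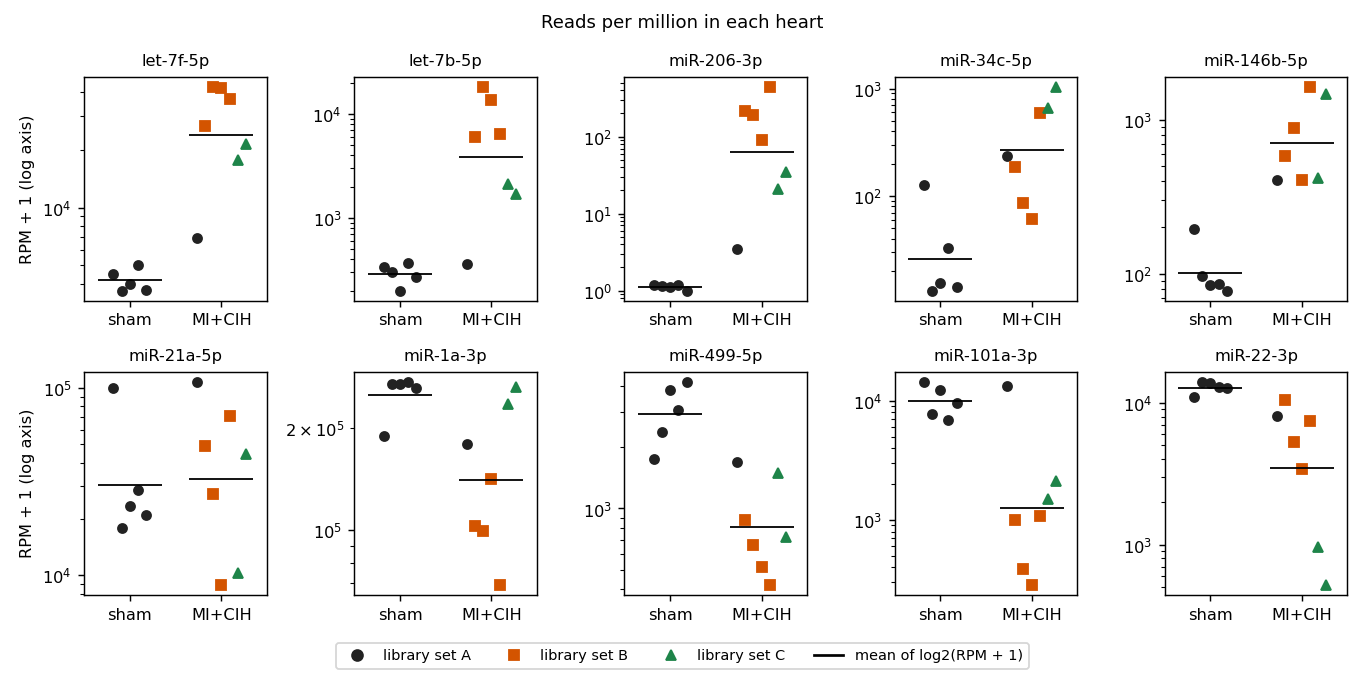
RPM + 1 (log axis) of 10 miRNAs in each of the 5 sham and 7 MI+CIH hearts, with symbols for the library set and a line at the mean of log2(RPM + 1). MI+CIH 1, the set A point among the MI+CIH hearts, lies near the sham hearts for let-7b-5p and miR-101a-3p and among the other MI+CIH hearts for miR-34c-5p and miR-146b-5p.

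The let-7 family, which restrains growth and developmental genes and is abundant in adult tissue, was higher in nearly every member. All 9 tested miRNAs with the seed GAGGUAG were called higher, with changes of 2.11 to 3.80. For this and all later counts of members, the shares among all 360 were 52.2% called higher and 4.44% lower. Over all tested let-7 list members, both arms included, 11 of 14 were higher and 1 lower, with a median change of 2.57, and 7 and 1 were called under TMM scaling, with a median of 0.99. The only let-7 entry called lower, let-7a-1-3p, is a passenger arm at 26.3 ± 6.75 RPM in sham and 13.3 ± 9.47 in MI+CIH hearts (SD). Its call was lost without any of 11 single libraries (sham 1 to 5, CIH 2 or 4, or MI+CIH 2 to 5).

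let-7f-5p, the most abundant member, was at 4534, 3698, 4015, 5046 and 3742 RPM in sham 1 to 5. In MI+CIH hearts it was at 6960 RPM in MI+CIH 1, 26486 to 42346 in set B, and 17702 and 21538 in set C. The groups did not overlap, with a log2 change of 2.52 (SE 0.43, limma adjusted p = 0.00049). let-7b-5p was at 338, 298, 199, 367 and 271 RPM in sham hearts. Its 361 RPM in MI+CIH 1 lies inside the sham range, against 5982 to 18022 in set B and 2117 and 1706 in set C. Its log2 change was 3.73 (SE 0.81, limma adjusted p = 0.00205), and 0.33 (SE 0.41, adjusted p = 0.798) with sets fitted.

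The other members show the same split between hearts. let-7c-5p rose from 850.3 to 1289 RPM in sham to 1448 RPM in MI+CIH 1, 12206 to 39876 in set B and 9102 and 7567 in set C, a change of 3.43. let-7e-5p had 42.2 to 151 RPM in sham, 117 in MI+CIH 1, 1919 to 4624 in set B and 375 and 453 in set C, a change of 3.80. let-7a-5p and let-7g-5p changed by 2.91 and 2.46. let-7i-5p was at 2924 RPM in sham 1 and 1072 to 1391 in the other sham hearts, and rose by 2.63, or 2.88 without sham 1.

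The miR-99/miR-100/miR-125 family is transcribed with let-7 members in shared clusters, and 8 of its 9 tested members rose, with a median change of 2.17. Under TMM scaling 2 were higher and 1 lower, with a median of 0.66. miR-125a-5p, the cluster mate of let-7e, was at 93.9, 102, 111, 130.3 and 103 RPM in sham hearts. It was at 146 RPM in MI+CIH 1, 1477 to 4617 in set B, and 613 and 301 in set C, with no overlap and a change of 3.28 (SE 0.75, limma adjusted p = 0.00257). miR-125b-5p, which shares its seed, changed by 2.67. miR-99a-5p, the most abundant member, rose by 1.83, from 6161 ± 1028 RPM in sham to 24407 ± 10702 in MI+CIH, but by 0.24 under TMM scaling. miR-100-5p rose by 1.37, close to the median of all miRNAs, and that call was lost without any of 8 single libraries (sham 2 to 5 or MI+CIH 2 to 5; adjusted p = 0.053 to 0.092).

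The miR-34 family is transcribed under p53 and acts against cell division and survival genes. All 4 tested members, both arms included, rose, with a median change of 3.31. Under TMM scaling 2 were called higher, the 3p arms miR-34b-3p and miR-34c-3p. miR-34c-5p was at 125 RPM in sham 1 and 12.1, 14.4, 31.6 and 13 RPM in sham 2 to 5. It was at 233 RPM in MI+CIH 1, 59.8 to 589 in set B, and 658 and 1027 in set C. Without sham 1 every MI+CIH heart lies above every sham heart, and the log2 change goes from 3.36 (SE 0.69, limma adjusted p = 0.00162) to 3.93. Its change with sets fitted, 3.22 (SE 0.94), is close to the one without, although its adjusted p is then 0.407.

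miR-34b-3p was at 0.135 to 1.73 RPM in sham hearts, resting on 1 to 19 reads per library, and at 3.00 RPM in MI+CIH 1. It reached 11.9 to 41.8 RPM in set B and 57.9 and 52.3 in set C, with no overlap and a change of 3.81. miR-34c-3p, the other arm of the miR-34c hairpin, was at 0.0977 to 1.92 RPM in sham and 1.61 to 51.0 RPM in MI+CIH, a change of 3.26. miR-34a-5p, from another locus, rose by 1.47, near the median of all miRNAs, and its change under TMM scaling was -0.07.

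miR-206-3p, a miRNA of skeletal muscle, showed the largest change of the 360, 5.83 (SE 1.18, limma adjusted p = 0.00143). Sham 1 to 5 had 2, 1, 1, 1 and 0 reads of it. MI+CIH 1 had 2.44 RPM, the set B hearts 217, 189, 89.9 and 437 RPM, and the set C hearts 20.1 and 33.7 RPM. Against so few sham reads, the size of the change depends on the pseudocount of 1 RPM. miR-375-3p, a miRNA of endocrine and epithelial cells, had 0 to 3 reads in each sham heart, 1.78 RPM in MI+CIH 1, 26.5 to 101 RPM in set B and 19.0 and 14.8 RPM in set C, a change of 4.29. The adjusted p with sets fitted was 0.647 for miR-206-3p and 0.407 for miR-375-3p.

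miR-455-3p, from an intron of a collagen gene, was at 16.5 RPM in sham 1 and 5.40 to 7.03 in sham 2 to 5. It was at 24.9 RPM in MI+CIH 1, 180.5 to 402 in set B, and 66.6 and 88.1 in set C. The groups did not overlap, and the change of 3.91 (SE 0.66, limma adjusted p = 0.00049) was 4.17 without sham 1. Under TMM scaling it was 2.41, and with sets fitted 1.40 (SE 0.44, adjusted p = 0.407).

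The hairpins miR-199a-2 and miR-214 come from 1 transcript that is active in fibroblasts and other mesenchymal cells. The list also holds miR-199b-5p. Of 5 tested members of this list 4 rose, with a median change of 2.37, and 1, miR-214-3p, was called higher under TMM scaling, with a median of 0.79. miR-214-3p was at 198 RPM in sham 1 and 35.5, 21, 35.3 and 32.4 RPM in sham 2 to 5. MI+CIH 1 had 178 RPM, set B 643 to 2407 and set C 129.5 and 248. Sham 1 therefore lies inside the MI+CIH range, and the change of 3.75 (SE 0.90, limma adjusted p = 0.00299) was 4.28 without it. miR-199a-3p behaved alike, with 1055 RPM in sham 1, 265 to 323 in the other sham hearts and 565 to 4539 in MI+CIH hearts, a change of 2.37, or 2.74 without sham 1. miR-199a-5p rose by 2.13, or by 2.71 without sham 1, and that call was lost without sham 2, sham 4 or sham 5.

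miR-146a and miR-146b are induced by NF-kappaB and dampen signalling from innate immune receptors; both rose. miR-146a-5p was at 107, 44.0, 30.7, 54.6 and 71.9 RPM in sham hearts, 101 in MI+CIH 1, 479 to 1383 in set B and 2356 and 1754 in set C. Its change was 3.83 (SE 0.75, limma adjusted p = 0.0013). miR-146b-5p was at 194 RPM in sham 1 and 76.7 to 96.0 in the others, against 403 RPM in MI+CIH 1, 405 to 1628 in set B and 416 and 1477 in set C. Here MI+CIH 1 lies with the rest of its group, and the change was 2.80 (SE 0.48), 3.03 without sham 1, and 1.65 (SE 0.58, adjusted p = 0.407) with sets fitted.

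Among the leukocyte miRNAs 4 of 7 tested rose, a share near the 52.2% called higher among all 360, with a median change of 1.95. miR-223-3p, of neutrophils and monocytes, was at 12.9, 6.48, 7.14, 10.2 and 6.59 RPM in sham and 17.5 to 84.3 RPM in MI+CIH hearts, with no overlap and a change of 1.95 (SE 0.47, limma adjusted p = 0.00299). miR-155-5p, induced in activated macrophages and lymphocytes, was at 13.1 to 28.1 RPM in sham, 18.3 in MI+CIH 1, 209 to 480.4 in set B and 83.4 and 114 in set C, a change of 2.72. miR-150-5p, of mature lymphocytes, was at 42.2 to 121 RPM in sham and 543 to 1648 in set B, but 54.0, 73.2 and 98.7 RPM in the other 3 MI+CIH hearts, and was not called (1.95, adjusted p = 0.0579). miR-142a-3p, found in all blood cell lineages, was at 8.79 to 19.1 RPM in sham, 0.502 to 4.25 in set B and 51.3 and 96.0 in set C, and miR-142a-5p was not called either (-1.12). Leukocyte miRNAs thus differed in direction from each other within the set B hearts. Under TMM scaling 1 of the 7 was higher and 1 lower.

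miR-210, the miRNA that hypoxia-inducible factor raises most widely across cell types, rose on both arms. miR-210-3p was at 11.9, 5.26, 7.33, 4.21 and 4.83 RPM in sham hearts and at 5.52 to 69.0 RPM in MI+CIH hearts, with 17.1 RPM in MI+CIH 1. Its change was 1.83 (SE 0.55, limma adjusted p = 0.0114), or 0.40 under TMM scaling, where it was not called. miR-210-5p, the minor arm, was at 0 to 0.548 RPM in sham and 0.756 to 11.4 RPM in MI+CIH, a change of 2.04, and it was called under each of the 3 scalings.

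The epithelial miR-200 family and its relatives were higher in 6 of 7 tested members, with a median change of 2.46 (1.22 under TMM scaling, where 1 was called). miR-200b-3p was at 8.22 to 40.3 RPM in sham, the highest in sham 4, and at 30.9 RPM in MI+CIH 1, 41.5 to 547 in set B and 201 and 160.1 in set C, a change of 3.24. miR-200c-3p was at 1.62 to 9.82 RPM in sham and 5.83 to 237 in MI+CIH, a change of 3.71. miR-203-3p, of skin, did not pass (0.70, adjusted p = 0.113). The summed level of the epithelial markers miR-200b-3p, miR-200c-3p and miR-205-5p was 11 to 52.5 RPM in sham and 38.4 to 821 RPM in MI+CIH hearts. None of the markers of skeletal muscle, endocrine cells, epithelium or liver was at 0 in all sham hearts, and their part in the other changes was not tested.

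The imprinted Dlk1-Dio3 cluster of chromosome 12 is the largest of the lists: 27 of 41 tested rose and none fell, beside 52.2% and 4.44% of all 360. Its median change was 1.61, which is near that of all miRNAs. Under TMM scaling 8 were higher and 1 lower, with a median of 0.34. miR-127-3p, its most abundant member, was at 833 RPM in sham 1, 170.1 to 313 in sham 2 to 5, 661 in MI+CIH 1, 3120 to 6109 in set B and 862 and 991 in set C, a change of 2.69 (SE 0.69, limma adjusted p = 0.00446), or 3.03 without sham 1. miR-379-5p was at 715 RPM in sham 1, 79.2 to 154 in the other sham hearts and 240.4 to 1592 in MI+CIH hearts, a change of 1.88, or 2.41 without sham 1, and its call was lost without sham 3 (adjusted p = 0.0595).

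**Figure D4:**
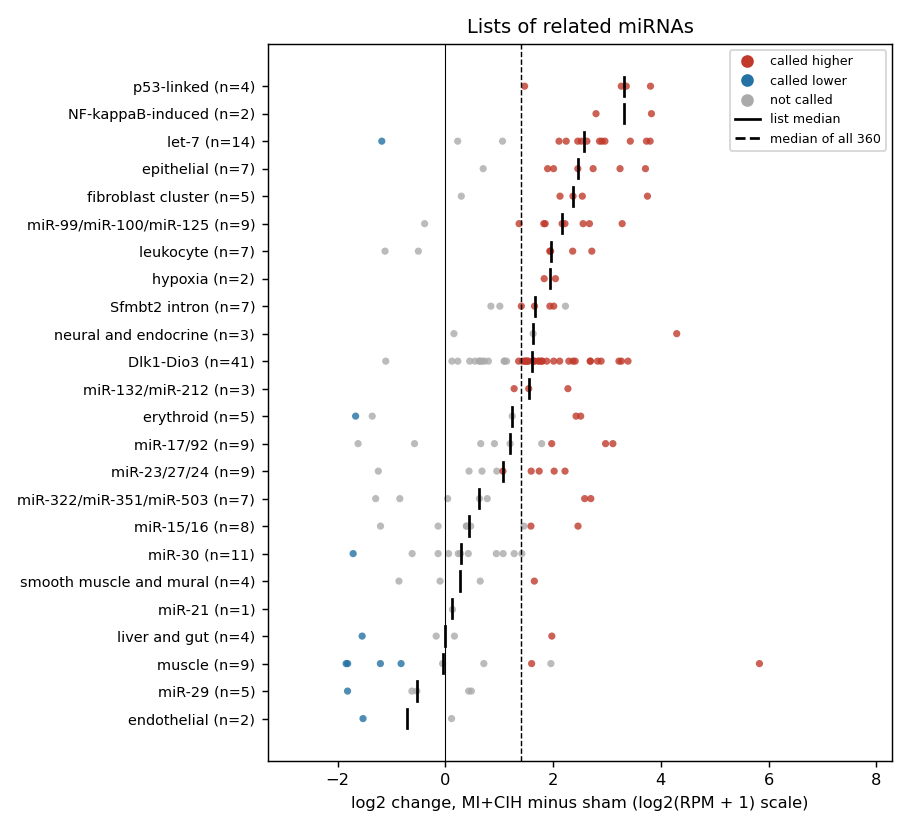
Log2 change between MI+CIH and sham for each tested miRNA of 24 lists (points, coloured by call), with each list's median as a bar and the median of all 360 (1.39) as a dashed line. The p53-linked, NF-kappaB, let-7, epithelial, miR-199a/miR-214 and miR-99/miR-100/miR-125 lists have medians between 2.17 and 3.31, and the lowest medians are those of the endothelial (-0.71), miR-29 (-0.53) and muscle (-0.05) lists.

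The muscle list split by member. Of 9 tested, 4 fell (miR-1a-3p, miR-133a-5p, miR-208a-3p and miR-499-5p) and 2 rose (miR-133a-3p and miR-206-3p), with a median change of -0.05. Under TMM scaling 5 were lower and 1 higher, with a median of -1.62. miR-1a-3p, the most abundant miRNA of the heart, was at 189056, 268876, 267785, 272753 and 261221 RPM in sham 1 to 5. In MI+CIH it was at 178754 RPM in heart 1, 69203 to 141425 in set B, and 234531 and 262684 in set C, which overlap with sham. The change was -0.82 (SE 0.32, limma adjusted p = 0.0313), or -0.92 without sham 1, and the call was lost without any of 7 single libraries (sham 2 to 5 or MI+CIH 2, 3 or 5; adjusted p = 0.062 to 0.0686).

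miR-499-5p, carried in a myosin gene, was at 1751, 2376, 3839, 3069 and 4208 RPM in sham hearts. Every MI+CIH heart lay below: 1683 RPM in heart 1, 419 to 877 in set B, and 1490 and 719.8 in set C. Its change was -1.84 (SE 0.43, limma adjusted p = 0.00272), and it was called lower under each scaling and by edgeR. miR-208a-3p was at 54.2 to 99.9 RPM in sham, 85.0 in MI+CIH 1, 3.01 to 16.7 in set B and 93.2 and 42.5 in set C, a change of -1.82 (SE 0.67, limma adjusted p = 0.0265). That call was lost without any of 6 single libraries (sham 1, 3 or 5 or MI+CIH 3, 4 or 5). miR-208b-3p, from the slow myosin gene that stressed mouse hearts re-express, was at 41.7 RPM in sham 1, 6.49 to 10.1 in the others and 3.52 to 99.3 RPM in MI+CIH, the highest in heart 1, and was not called (0.71, adjusted p = 0.362), nor without sham 1 (1.17, adjusted p = 0.147).

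The arms of the miR-133a hairpin were called in opposite directions, the 1 such case among 84 hairpins with both arms tested, of which 15 had arms with changes of opposite sign. miR-133a-3p was at 2451 to 3637 RPM in sham, 2776 in MI+CIH 1, 8427 to 23097 in set B and 5345 and 5987 in set C, a change of 1.60 (SE 0.51) that was 0.02 under TMM scaling. miR-133a-5p was at 243 to 377 RPM in sham and 54.2 to 235 RPM in MI+CIH, with no overlap and a change of -1.21 (SE 0.46, limma adjusted p = 0.0307). The latter call was lost without sham 3, 4 or 5 or MI+CIH 3, 4 or 5. Of the 84 hairpins, 27 had both arms higher, 0 both lower, 35 had 1 arm called and 21 neither, and the arms differed by a median of 0.95 in log2 change.

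Outside muscle, miR-101a-3p fell most. It was at 14451, 7791, 12384, 6954 and 9654 RPM in sham hearts and at 13192 RPM in MI+CIH 1, inside the sham range. The set B hearts had 999, 385, 284 and 1081 RPM and the set C hearts 1495 and 2131. Its change was -2.97 (SE 0.72, limma adjusted p = 0.00311), and -0.13 (SE 0.63) with sets fitted. miR-101b-3p followed the same order, with 1288 to 2285 RPM in sham, 2116 in MI+CIH 1, 98.4 to 412 in set B and 459 and 799 in set C, a change of -2.03.

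miR-22-3p, a miRNA of striated muscle cells that acts in hypertrophy, was at 10908, 14064, 13709, 12863 and 12611 RPM in sham hearts. It was below all of them in each MI+CIH heart, at 8127 RPM in heart 1, 3438 to 10542 in set B, and 955 and 519.6 in set C. The set C hearts are thus the lowest here, unlike for miR-101a. The change was -1.89 (SE 0.69, limma adjusted p = 0.0263), and the call was lost without sham 3 (adjusted p = 0.0535).

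miR-30e-5p fell by 1.71 (SE 0.66, limma adjusted p = 0.0323), from 3266 to 9223 RPM in sham to 441 to 1556 in set B and 2626 and 2140 in set C, while MI+CIH 1 had 8492 RPM. Its call was lost without any of 6 single libraries (sham 1, 2 or 3 or MI+CIH 3, 4 or 5). It was the only one of 11 tested miR-30 members to be called. The more abundant miR-30a-5p and miR-30d-5p had changes of -0.14 and 0.42 and were not called, and under TMM scaling 5 of the 11 were lower, with a median of -1.26. miR-30d-5p was 1 of these, at -1.16 (limma adjusted p = 0.019). The miR-29 list, which targets collagen messages, had 1 of 5 tested members lower, none higher and a median of -0.53. Its lower member miR-29c-3p was at 17.0 to 32.6 RPM in sham, 15.9 in MI+CIH 1, 0.502 to 4.90 in set B and 13.5 and 17.7 in set C, a change of -1.82. miR-29a-3p and miR-29c-5p had changes of 0.48 and 0.43 and were not called.

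miR-126a is made from an intron of an endothelial gene. miR-126a-5p was at 1275 to 1821 RPM in sham and lower in each MI+CIH heart, at 1139 RPM in heart 1, 287 to 650.4 in set B and 367 and 481 in set C, a change of -1.53 (SE 0.41, limma adjusted p = 0.00539). miR-126a-3p, the main arm, was not called (0.11): it was at 7168 to 8861 RPM in sham and 2875 to 5661 in MI+CIH 1 to 5, but at 49894 and 24287 RPM in the set C hearts. The arms therefore parted in set C, where the 3p arm was above and the 5p arm below every sham heart. miR-192-5p, of liver and gut, was at 445 to 762 RPM in sham, 491 in MI+CIH 1, 82.4 to 252 in set B and 205 and 189 in set C, a change of -1.55 (SE 0.47). miR-135a-5p was at 4.75 to 17.4 RPM in sham and 1.51 to 3.93 in MI+CIH, with no overlap and a change of -1.64. With let-7a-1-3p, miR-144-3p and second entries of miR-1a-3p and miR-126a-5p, these make up the 16 called lower.

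The next most abundant miRNAs of sham hearts after miR-1a-3p, which are miR-143-3p, miR-21a-5p, miR-148a-3p and miR-378a-3p, were not called by the main test. miR-143-3p, of smooth muscle, was at 197959 to 260901 RPM in sham, 253319 in MI+CIH 1 and 146616 to 269317 in set B, but at 39387 and 31494 in set C, with a change of -0.86 (SE 0.53, adjusted p = 0.166). miR-148a-3p was at 22829 to 39017 RPM in sham and 16154 to 28042 in set B, and at 153904 and 126837 RPM in set C (0.55, adjusted p = 0.388). miR-378a-3p, from an intron of the metabolic regulator gene Ppargc1b, was at 24175 to 34849 RPM in sham, 40295 to 68576 in set B and 18627 and 11763 in set C (0.19, adjusted p = 0.747). For these 3, sets B and C part from sham by different amounts or in different directions. Under TMM scaling miR-378a-3p was called lower (-1.40, limma adjusted p = 0.0073). It was also called lower under median-of-ratios scaling (-1.21), by edgeR (-1.40) and by DESeq2 (-1.18). Neither scaling gave a call for miR-21a-5p or miR-148a-3p.

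miR-21a-5p, a miRNA of fibroblasts and injured hearts, was at 100570 RPM in sham 1 and 17878, 23457, 28616 and 21109 RPM in sham 2 to 5. MI+CIH hearts ran from 8888 to 108142 RPM with a median of 44349, the highest in heart 1. It was not called (0.12, SE 0.55, adjusted p = 0.863), nor without sham 1 (0.55, adjusted p = 0.399). With sham 1 inside the upper MI+CIH range, the groups overlap over most of their span.

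The remaining lists had medians of at most 1.65. The medians of the miR-15/16 (0.43), miR-322/miR-351/miR-503 (0.63), miR-17/92 (1.20), miR-23/27/24 (1.07), smooth muscle (0.27), erythroid (1.24) and miR-30 (0.28) lists turned negative under TMM scaling (-1.02, -0.79, -0.38, -0.32, -1.27, -0.34 and -1.26). The smooth muscle list had 1 of 4 higher (miR-145a-5p, 1.65) and the erythroid list 2 of 5 higher and 1 lower. Within the erythroid list, miR-486a-5p rose by 2.51 and miR-486a-3p by 2.42, and miR-144-3p, from the hairpin next to that of miR-451a, fell by 1.67. miR-451a had a change of 1.24 that was not called (adjusted p = 0.0817). It was 0.80 (adjusted p = 0.263) without sham 1 and was called higher without sham 4, MI 3 or MI+CIH 1 (adjusted p = 0.0386 to 0.0476). The call of miR-144-3p was lost without any of 8 single libraries (sham 1, 3, 4 or 5 or MI+CIH 2 to 5; adjusted p = 0.0569 to 0.096). miR-132/miR-212 members were higher in 3 of 3, with miR-132-3p at 2.27 and miR-132-5p at 1.27. The miR-132-3p call was lost without sham 3 or MI+CIH 2, 3 or 5, and that of miR-132-5p without sham 3 or MI+CIH 3.

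Among all 360, 52.2% were called higher, and the 5 of 9 and 4 of 7 given here are near that share. In the cell-cycle lists, 3 of 9 tested miR-17/92 members rose, miR-92a-3p by 2.97 and miR-25-3p by 1.97. Of 9 miR-23/27/24 members 5 rose; miR-27b-3p had a change of 0.44 and miR-24-3p rose by 1.07, a call lost without sham 2 or 3 or MI+CIH 2, 3 or 5. Of 8 miR-15/16 members 2 rose, and the abundant miR-16-5p (0.47) and miR-195a-3p (1.46) were not called. Of 7 members of the miR-322/miR-351/miR-503 cluster 2 rose, while miR-322-3p (0.78) and miR-450a-5p (-0.85) were not called. In the Sfmbt2 intron cluster 4 of 7 rose, with miR-467b-5p at 1.65 and miR-466i-5p not called at 2.23. In the liver and gut list 1 of 4 rose, miR-122-5p at 1.98 (0.439 to 0.877 RPM in sham and 0.278 to 22.8 in MI+CIH; not called without MI+CIH 3 or 5), and miR-194-5p had a change of 0.17. In the neural and endocrine list miR-9-5p (0.16) and miR-129-5p (1.63) were not called. Under TMM scaling miR-9-5p was called lower (-1.41, limma adjusted p = 0.0059).

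The defining markers of heart tissue were present in every heart. The summed level of miR-1a-3p, miR-133a-3p, miR-208a-3p and miR-499-5p was 193358 to 278561 RPM in sham and 88403 to 269434 RPM in MI+CIH hearts. The fibroblast pair miR-199a-3p and miR-214-3p summed to 286 to 1254 RPM in sham and 931 to 5088 in MI+CIH. The leukocyte markers miR-223-3p, miR-142a-3p and miR-150-5p summed to 71.9 to 149 RPM in sham and 104 to 1673 in MI+CIH, and the erythrocyte markers to 568 to 3807 and 1396 to 15221 RPM. These sums hide members that moved apart. In MI+CIH 4, which had the highest leukocyte sum, miR-150-5p was at 1648 RPM and miR-142a-3p at 0.502 RPM. Of the erythrocyte markers miR-486a-5p rose and miR-144-3p fell. Of the heart muscle markers miR-133a-3p rose and the others fell. How far these cell types account for other changes was not tested.

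MI against sham and CIH against sham use the same 5 sham hearts, so their values are set beside those of MI+CIH without a count of shared directions. limma called 0 miRNAs in MI against sham (0.0%, 101 at an unadjusted p under 0.05) and 0 in CIH against sham (0.0%, 1 unadjusted). For let-7b-5p the log2 changes from sham were 3.73 in MI+CIH, 2.91 in MI and -0.16 in CIH. For miR-101a-3p they were -2.97, -2.40 and -0.66, for miR-206-3p 5.83, 2.68 and 0.52, and for miR-34c-5p 3.36, 1.10 and -0.47. For miR-499-5p they were -1.84, -0.74 and 0.31. Taken directly, MI+CIH against MI gave 0 calls (0.0%, 17 at an unadjusted p under 0.05), with a difference of 2.25 (SE 0.74, adjusted p = 0.442) for miR-34c-5p and 0.82 (SE 0.87, adjusted p = 0.895) for let-7b-5p. With sets fitted, limma called 2 in MI+CIH against MI (0.556%), miR-34b-3p and miR-375-3p, both higher. The sets were found from these same values, and the p-values of that fit do not allow for that choice. With 0 calls in the direct test, a miRNA past the threshold in MI+CIH against sham and not in MI against sham is not shown to differ between MI+CIH and MI.

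Groups by seed or position are small, and 52.2% of all 360 were called higher, so their counts only describe the members. By seed, 4 of 5 miRNAs with AUUGCAC (the miR-25/92 family) rose, as did 3 of 3 each with CCCUGAG (miR-125 and miR-351), ACCCGUA (miR-99 and miR-100) and AAUACUG (miR-200b/c and miR-429). None of 3 with AGCACCA (miR-29) or of 3 with GUAAACA (miR-30) rose, and 1 of each fell. Seeds were counted only where a sequence matched RefSeq, so miR-30b-5p and miR-30d-5p, tested and not called, are outside the miR-30 count. By position, all 4 tested miRNAs of the hairpins at chr1:162217814-162223477 (miR-199a-2 and miR-214) rose, as did all 4 at chr4:156053905-156055750 (miR-200a, miR-200b and miR-429). At chr17:17830194-17830879 (miR-99b, let-7e, miR-125a) 5 of 6 rose.

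Base composition moved with the change. Second entries were left out, which gave 299 miRNAs with a RefSeq sequence. For these, the Pearson correlation of the share of G and C with the log2 change was 0.37 (Spearman 0.39), a description across miRNAs of the same libraries. Under 40% G and C, 13 of 54 were higher and 7 lower, with a median change of 0.28; at 60% and over, 36 of 45 were higher and 0 lower, with a median of 1.88. The median share was 50% in those called higher and 36.4% in those called lower. By heart, the correlation of G and C with the difference from sham was 0.47 in set B, -0.07 in set C and -0.01 in MI+CIH 1, and it was 0.52 in the 2 set B hearts with MI alone. The fit with sets fitted gave a correlation of 0.00. Among the sequences printed above, miR-101a-3p, which fell, has 33.3% and miR-455-3p, which rose, 57.1%, although let-7f-5p rose with 31.8%.

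**Figure D5:**
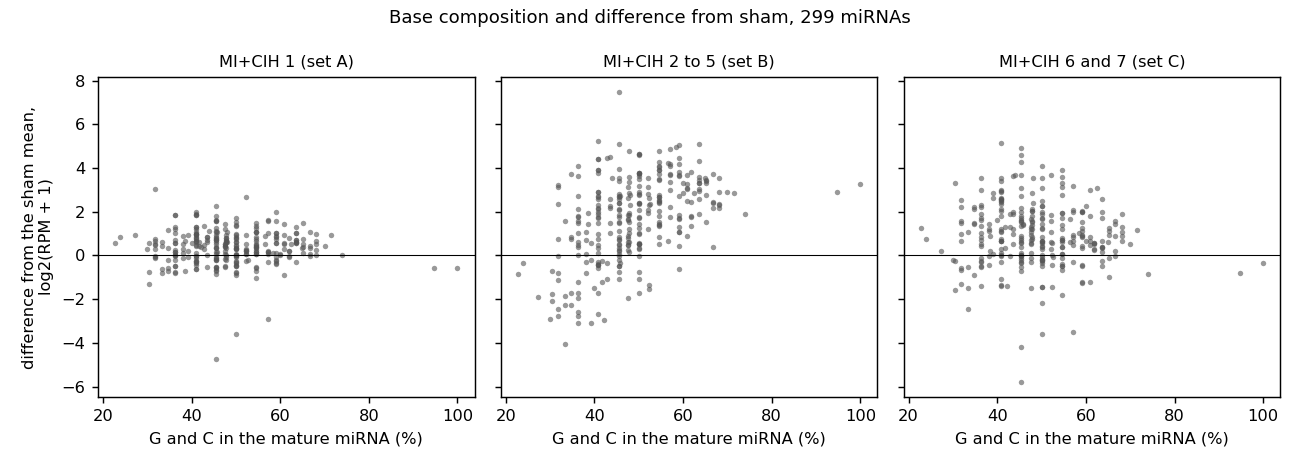
Difference from the sham mean in log2(RPM + 1) against the share of G and C in the mature miRNA (%), 1 point per miRNA (299), for MI+CIH 1, the 4 set B hearts and the 2 set C hearts. The points climb with G and C in set B (Pearson 0.47) and show no such slope in set C (-0.07) or MI+CIH 1 (-0.01).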

How the data were processed

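Small RNA reads were processed by the authors with Bowtie and DESeq 1.8.3 on mm10, per the submitters' processing notes, without saying what each did; which miRBase version was used, and how reads were counted, is not given in the sources used here. The deposited table calls its values TPM; by the values they are RPM, the authors' reads of a miRNA per 1000000 assigned reads of its library. Every library's values (100%) came out as whole numbers of reads within 0.05 reads; the reads recovered this way give the depth, which is 1991323 to 18138415 per library.

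The main test was limma 3.58.1 (R 4.3.3) on log2(RPM + 1), using the 20 libraries and 1 mean for each group (residual degrees of freedom 16, prior 5.90), trend-moderated and two-sided, with Benjamini-Hochberg adjustment over 360 miRNAs and a threshold of 0.05. Fold changes on this scale understate those of low miRNAs. The words rose and fell are kept for called miRNAs. Errors after ± are SDs (n = 5 sham, n = 7 MI+CIH). edgeR 4.0.16 and DESeq2 1.42.0 were run on recovered reads. Other alternatives were pseudocounts, filters, TMM and median-of-ratios scaling, quality weights, a fit of only the compared groups, the replicate number as a block, the library set as a term, set A alone, removal of second entries and leaving out libraries. The scripts were tested on simulated data.

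Named miRNAs are, among called miRNAs averaging 50 RPM or more, the 10 that changed most each way; the 3 with the smallest p; the 2 most abundant of each of 24 lists; the 5 most abundant per group; miR-223-3p, miR-210-3p, miR-208b-3p, miR-21a-5p and miR-214-3p; and up to 5 called miRNAs beyond all sham hearts in MI+CIH 1. let-7a-5p, let-7g-5p, let-7a-1-3p, miR-125b-5p, miR-34c-3p, miR-199a-5p, miR-29c-3p, miR-155-5p, miR-142a-3p, miR-451a, miR-144-3p, miR-690, miR-135a-5p and miR-122-5p were named after their values were seen. Members and lists were chosen with earlier results of these data known. Sequences matched RefSeq for 306 of the 360; places are from GENCODE M21.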

Additional observations from a re-analysis of the deposited data

Results flagged for a closer look

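In groups of 4 to 10 hearts, a value was singled out when its gap to the next, on the log2(RPM + 1) scale, was larger than Dixon's 95% limit. Of 162 groups of values looked at, 12 held such a value, and chance singles out about 1 in 20. Sham 1 gave 8 of them: 100570 RPM of miR-21a-5p, 198 of miR-214-3p, 1055 of miR-199a-3p, 194 of miR-146b-5p, 41.7 of miR-208b-3p, 16.5 of miR-455-3p and 2924 of let-7i-5p, all above the other sham hearts, and 189056 of miR-1a-3p, below them. MI+CIH 1 was below the other MI+CIH hearts for let-7i-5p (3012 RPM), let-7g-5p (1332 RPM) and miR-99a-5p (6165 RPM). MI+CIH 4 was below them for miR-322-3p (42.2 RPM).

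Some entries that were too low in most libraries to be tested were high in single MI+CIH hearts. miR-136-5p, of the Dlk1-Dio3 cluster, was at 37.4 RPM in MI+CIH 6 and 46.9 in MI+CIH 7, against 0.146 to 3.93 RPM in sham hearts. miR-3071-3p was at 41.0 and 49.4 RPM in the same 2 hearts, against 0.439 to 4.56 in sham. These values lie close to those of miR-136-5p, and whether the entries share reads was not tested. miR-362-5p reached 22.1 RPM in MI+CIH 7 (1.83 to 3.64 in sham), and miR-483-5p reached 27.1 RPM in MI+CIH 4 (0.195 to 0.439 in sham).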

How the results depend on the processing

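Pseudocounts of 0.5 and 5 RPM kept the direction and the call of each named miRNA, and a mean of at least 50 RPM did so for those it retained (80 of 92 called were higher). The counts of higher and lower miRNAs were 127 and 8 without a filter (135 in all, of 1416 tested), 61 and 51 under median-of-ratios scaling (112), 51 and 64 under TMM scaling (115), 274 and 32 with quality weights (306, with the estimation of the weights stopped short of its convergence tolerance), 52 and 33 by edgeR (85), 105 and 41 by DESeq2 (146), 0 and 2 in set A alone (2, with 37 at an unadjusted p under 0.05), and 0 and 0 with sets fitted (0). The fit with the replicate block gave 198 and 20 (218 in all); same-numbered sham and MI+CIH hearts deviated with r = 0.33, 0.14, -0.28, 0.47 and 0.0018 for numbers 1 to 5, with numbers 1 and 4 best matched by their own; not every pair deviated together, so the numbers were not taken as pairs. A fit of only the 2 compared groups gave 173 higher and 12 lower (185), and removal of second entries gave 171 and 16 (187). Leaving out 1 library gave 148 to 239 called, 140 to 215 higher and 8 to 24 lower. The lower count was 8 without sham 3, 9 without MI+CIH 3 or MI+CIH 5, 10 without sham 5 and 24 without MI+CIH 1. The cause of these shifts was not tested. Depth limits miRNAs at a few reads, as miR-206-3p in sham; intervals would cover counting error only.

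The sign of the log2 change turned for the following named miRNAs, and the cause was not tested. Many of them were called in the main test, among them miR-101a-3p, miR-101b-3p, miR-208a-3p, miR-30e-5p, miR-133a-3p, miR-25-3p, miR-155-5p and miR-486a-5p. In set A alone, the turned values were miR-101a-3p 0.42, miR-101b-3p 0.40, miR-208a-3p 0.17, miR-30e-5p 0.78, miR-133a-3p -0.070, miR-132-3p -0.43, miR-29a-3p -0.039, miR-29c-5p -0.46, miR-30a-5p 0.85, miR-16-5p -0.22, miR-25-3p -0.34, miR-126a-3p -0.52, miR-143-3p 0.17, miR-150-5p -0.65, miR-142a-5p 0.61, miR-486a-3p -0.48, miR-486a-5p -0.48, miR-466i-5p -0.37, miR-194-5p -0.73, miR-9-5p -0.59, miR-378a-3p -0.52, let-7a-1-3p 0.037, miR-155-5p -0.22, miR-142a-3p 1.15, miR-144-3p 0.30 and miR-122-5p -0.35. With sets fitted, the turned values were miR-101b-3p 0.0015, miR-30e-5p 0.57, miR-133a-3p -0.13, miR-132-3p -0.37, miR-29a-3p -0.20, miR-29c-5p -0.55, miR-30a-5p 0.46, miR-16-5p -0.34, miR-322-3p -0.019, miR-25-3p -0.47, miR-126a-3p -0.57, miR-143-3p 0.046, miR-150-5p -0.46, miR-486a-3p -0.45, miR-486a-5p -0.48, miR-466i-5p -0.35, miR-194-5p -0.65, miR-9-5p -0.67, miR-129-5p -0.097, miR-378a-3p -0.40, miR-155-5p -0.045, miR-142a-3p 0.38 and miR-122-5p -0.33. Under median-of-ratios scaling, the turned values were miR-21a-5p -1.28, miR-132-5p -0.072, miR-29a-3p -0.91, miR-29c-5p -0.93, miR-30d-5p -0.98, miR-100-5p -0.034, miR-16-5p -0.93, miR-322-3p -0.61, miR-27b-3p -0.96, miR-24-3p -0.33, miR-126a-3p -1.29, miR-203-3p -0.68, miR-194-5p -1.19, miR-9-5p -1.23, miR-148a-3p -0.86, miR-378a-3p -1.21, miR-208b-3p -0.54 and miR-451a -0.16. Under TMM scaling, the turned values were miR-21a-5p -1.46, miR-34a-5p -0.069, miR-132-5p -0.25, miR-29a-3p -1.10, miR-29c-5p -1.11, miR-30d-5p -1.16, miR-100-5p -0.22, miR-16-5p -1.11, miR-195a-3p -0.11, miR-322-3p -0.79, miR-27b-3p -1.15, miR-24-3p -0.52, miR-126a-3p -1.47, miR-203-3p -0.86, miR-194-5p -1.37, miR-9-5p -1.41, miR-148a-3p -1.04, miR-378a-3p -1.40, miR-208b-3p -0.69 and miR-451a -0.34. Of those turned under TMM scaling, miR-29c-5p, miR-30d-5p, miR-16-5p, miR-27b-3p, miR-9-5p and miR-378a-3p were called lower in that fit. With second entries removed, the turned values were miR-21a-5p -0.045, miR-126a-3p -0.050 and miR-9-5p -0.0055. By edgeR, the turned values were miR-21a-5p -0.90, miR-132-5p -0.22, miR-29a-3p -0.012, miR-29c-5p -1.10, miR-30d-5p -1.16, miR-100-5p -0.14, miR-16-5p -0.95, miR-322-3p -0.54, miR-27b-3p -1.01, miR-24-3p -0.53, miR-126a-3p -0.25, miR-145a-5p -0.037, miR-379-5p -0.11, miR-203-3p -0.57, miR-194-5p -0.87, miR-9-5p -1.42, miR-378a-3p -1.40 and miR-451a -0.63. By DESeq2, the turned values were miR-21a-5p -0.70, miR-132-5p -0.0068, miR-29c-5p -0.94, miR-30d-5p -0.99, miR-16-5p -0.80, miR-322-3p -0.38, miR-27b-3p -0.84, miR-24-3p -0.32, miR-126a-3p -0.17, miR-203-3p -0.43, miR-194-5p -0.76, miR-9-5p -1.19, miR-378a-3p -1.18, miR-142a-3p 0.047 and miR-451a -0.45. With the replicate block, the turned values were miR-29a-3p -0.30, miR-126a-3p -0.72, miR-194-5p -0.31, miR-148a-3p -0.18 and miR-690 0.98. With quality weights, the turned values were miR-30a-5p 0.0057, miR-126a-3p -0.45, miR-148a-3p -0.18 and miR-690 0.92. Leaving out 1 library gave ranges that cross 0 for miR-21a-5p (-0.17 to 0.55), miR-30a-5p (-0.30 to 0.051), miR-126a-3p (-0.32 to 0.37), miR-194-5p (-0.039 to 0.45) and miR-378a-3p (-0.00012 to 0.42). Calls gained without 1 library were those of miR-150-5p (MI 2, MI 3, MI+CIH 1, 6 or 7), miR-129-5p (MI 3, MI+CIH 1, 6 or 7), miR-466i-5p (MI+CIH 1, 6 or 7), miR-195a-3p (MI+CIH 6 or 7), miR-322-3p (MI+CIH 4) miR-142a-5p (MI+CIH 1) and miR-451a (sham 4, MI 3 or MI+CIH 1).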
